A study of Mus musculus with 10 samples.

Results

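The hypoxia-induced genes described here are 10 genes chosen by name because their transcripts are known to rise when cells run short of oxygen: Slc2a1, Pgk1, Ldha, Pdk1, Car9, Bnip3, Egln3, Ankrd37, Ndrg1 and Adm. All 10 were found, each on 1 of the 35663 entries of an RNA-seq table of whole mouse kidneys at the mid-gestation stage E13.5, all on a C57/b6 background. The groups were wild type (n=4), embryos with the Foxd1-Cre allele alone (Foxd1GC control, n=3) and embryos with Foxd1-Cre; Ntn1c/c (Ntn1SPKO, n=3). Foxd1GC places Cre in the Foxd1 locus and acts in stromal progenitors of the kidney, so control and Ntn1SPKO kidneys both carry a changed Foxd1 allele, wild-type kidneys do not, and Ntn1 is removed only from cells of the Foxd1 lineage. The comparisons ask whether transcripts that report on oxygen supply differ in kidneys that lack netrin 1, a secreted guidance cue, in the stroma. The study examined how the vessels of these kidneys are patterned. It also reported, at E13.5, a transient loss of perfusion in Ntn1SPKO kidneys, from an injected label and lower staining of a flow-dependent artery protein.

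When oxygen is plentiful, prolyl hydroxylases encoded by Egln1, Egln2 and Egln3 mark the alpha subunits of hypoxia-inducible factor (HIF), Hif1a and Epas1, for destruction through Vhl. When oxygen is low the subunits persist, pair with Arnt and bind a short element, the hypoxia response element, near target genes that favour glucose uptake, glycolysis, mitochondrial turnover and vessel growth. The embryonic kidney grows while its circulation is still forming and is known as a tissue in which HIF is active.

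The core of the hypoxia response element is ACGTG or GCGTG, and it was searched for on both strands (CACGT and CACGC on the strand shown). RefSeq start sites (GRCm38.p6) gave 11 promoters, from 250 bases before to 50 after a start, for 9 of the 10 genes, and Ndrg1 had no entry. All 9 genes had a promoter with at least 1 core, and only the second start of Pdk1 had none. Of all 32817 promoters of that length, 43.8% held a core, and of the 9678 with at least 60% GC, 69.2% did, so a match is common and describes the letters only. Cores that overlap, as in the palindrome CACGTG, were each counted. The 250 bases before the start are printed 5′ to 3′ for Pgk1 and Ldha, the pair whose levels moved together, for Pdk1, the gene whose groups separated most clearly, and for Ankrd37 and Adm, which were highest in the same control kidneys. Capitals mark the cores.
Pgk1, chrX:106186850-106187099, plus strand: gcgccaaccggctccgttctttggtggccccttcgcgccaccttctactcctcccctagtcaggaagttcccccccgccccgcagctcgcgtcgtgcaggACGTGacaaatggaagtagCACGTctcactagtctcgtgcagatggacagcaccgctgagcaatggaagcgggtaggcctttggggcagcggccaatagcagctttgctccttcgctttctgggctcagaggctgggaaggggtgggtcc
Ldha, chr7:46845554-46845803, plus strand: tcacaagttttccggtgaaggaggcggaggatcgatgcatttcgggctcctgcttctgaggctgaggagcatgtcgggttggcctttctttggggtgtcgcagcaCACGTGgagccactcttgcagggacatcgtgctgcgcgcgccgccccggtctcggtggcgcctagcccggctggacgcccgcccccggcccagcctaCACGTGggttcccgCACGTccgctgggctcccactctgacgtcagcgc
Pdk1, chr2:71872974-71873223, plus strand: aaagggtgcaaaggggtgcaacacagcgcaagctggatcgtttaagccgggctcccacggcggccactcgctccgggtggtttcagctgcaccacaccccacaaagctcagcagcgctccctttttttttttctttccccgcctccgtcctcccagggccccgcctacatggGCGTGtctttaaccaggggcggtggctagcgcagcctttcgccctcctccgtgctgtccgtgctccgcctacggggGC
Ankrd37, chr8:45999851-46000100, minus strand: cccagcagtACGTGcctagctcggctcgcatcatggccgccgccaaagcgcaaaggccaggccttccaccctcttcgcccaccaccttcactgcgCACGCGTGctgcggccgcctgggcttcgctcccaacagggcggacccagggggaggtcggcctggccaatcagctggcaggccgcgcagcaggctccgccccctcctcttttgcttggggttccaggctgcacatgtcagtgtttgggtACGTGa
Adm, chr7:110627407-110627656, plus strand: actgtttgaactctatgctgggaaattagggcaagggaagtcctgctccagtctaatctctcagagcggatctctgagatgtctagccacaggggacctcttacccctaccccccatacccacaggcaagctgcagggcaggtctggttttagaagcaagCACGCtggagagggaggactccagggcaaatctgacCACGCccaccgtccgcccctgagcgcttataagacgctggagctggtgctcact

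The Pgk1 promoter held 2 cores, both of the ACGTG form, starting 150 and 131 bases before the start site, which lies at the first base of the gene. In Ldha the window around this start held 7 cores, with overlapping pairs at −145 and −144 and at −48 and −47, and 2 of the 7 lay after the start and are not printed. The Ldha start lies inside the gene as GENCODE M21 draws it (chr7:46841475-46855627), and a second RefSeq start had 2 cores. In Pdk1 both cores were of the GCGTG form, at −78 and at −2, the latter running over the start site, so that only its first bases are seen. Ankrd37 held 4 cores and Adm 2, the latter both of the GCGTG form. Among those not printed, Bnip3 held 5 cores, Slc2a1 2, and Car9 and Egln3 1 each.

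The measurement was FPKM, fragments scaled to the length of the coding sequence and to library size, which allows levels of different genes to be compared per length. Ntn1 itself was 31.9, 28.3, 27.1 and 46.3 FPKM in wild-type replicates 1 to 4, 40.7, 24.2 and 51.4 in control replicates 1 to 3, and 16.3, 13.1 and 10.7 in Ntn1SPKO replicates 1 to 3. Every Ntn1SPKO library was below every other library, as the labels require. Transcript from cells outside the Foxd1 lineage and transcript left within it cannot be told apart. Some libraries stood apart. Y-linked transcripts were present in wild-type replicate 3, control replicate 2 and all 3 Ntn1SPKO libraries, with a sum of 88.6 to 98.1 FPKM over 4 genes, and were 0.21 to 1.02 FPKM in the other 5. Embryo sex was not determined by the authors, and it is unevenly spread over the groups. A fit with sex as a covariate therefore compares the Ntn1SPKO libraries with a single library, control replicate 2 or wild-type replicate 3. Its p-values rest on an arm of 1 library. Wild-type replicate 3 had the largest summed FPKM (1002638) and was the highest library for 21.5% and the lowest for 18.4% of 14492 genes. Control replicate 3 was alike in this (20.7% and 24.2%), while no other library exceeded 11.5% and 9.47%. Control replicates 1 and 3 had a higher sum over 9 stromal marker genes (1705 and 1961 FPKM, against 882 to 1168 in the other 8 libraries). Most of it came from the collagens Col1a1 (548 and 564 FPKM) and Col3a1 (651 and 787 FPKM). Meis1, Pdgfra, Postn and Cxcl12 were also highest in these libraries. Foxd1 (19.7 and 25.6 FPKM) and Pdgfrb (16.2 and 14.1 FPKM) were not raised. Ureteric bud marker RNA was lower there (220 and 92 FPKM over 10 genes, against 241 to 268). Control replicate 3 also had 1089 FPKM over 16 skeletal muscle genes, against 63 to 268 elsewhere. Erythroid RNA was high in control replicates 1 and 3 and Ntn1SPKO replicate 3 (16159, 18138 and 18670 FPKM over the 10 of 12 genes in the table) and 4782 to 10821 in the rest. Markers of nephron progenitors (372 to 487 FPKM over 8 genes), endothelium (179 to 252 FPKM over 10 genes) and neural and Schwann cells (22.3 to 32.9 FPKM over 8 genes) were present in every library, while 5 of 6 adrenal and gonad markers, among them Nr5a1 and Star, were below 0.5 FPKM in all.

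The members differed widely in level. Ldha (436 to 535 FPKM over the 10 libraries) and Pgk1 (253 to 304 FPKM), enzymes of glycolysis, were highest. Slc2a1 (31.6 to 37.1 FPKM), Bnip3 (20.9 to 35.1 FPKM) and Pdk1 (21.6 to 29.8 FPKM) formed a middle set, in which the range of Bnip3 overlapped both of the others. Ankrd37 (4.32 to 9.27 FPKM), Egln3 (4.76 to 7.67 FPKM) and Ndrg1 (3.53 to 8.15 FPKM) overlapped one another below these. Adm (0.843 to 2.63 FPKM) and Car9 (0.0748 to 0.402 FPKM) were lowest and did not overlap each other or their neighbours. The spread over the 10 libraries was smallest for Slc2a1, Pgk1 and Ldha, with a coefficient of variation of 5.93%, 6.84% and 7.98%, and largest for Adm and Car9, at 45.8% and 39%.

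**Figure D1:**
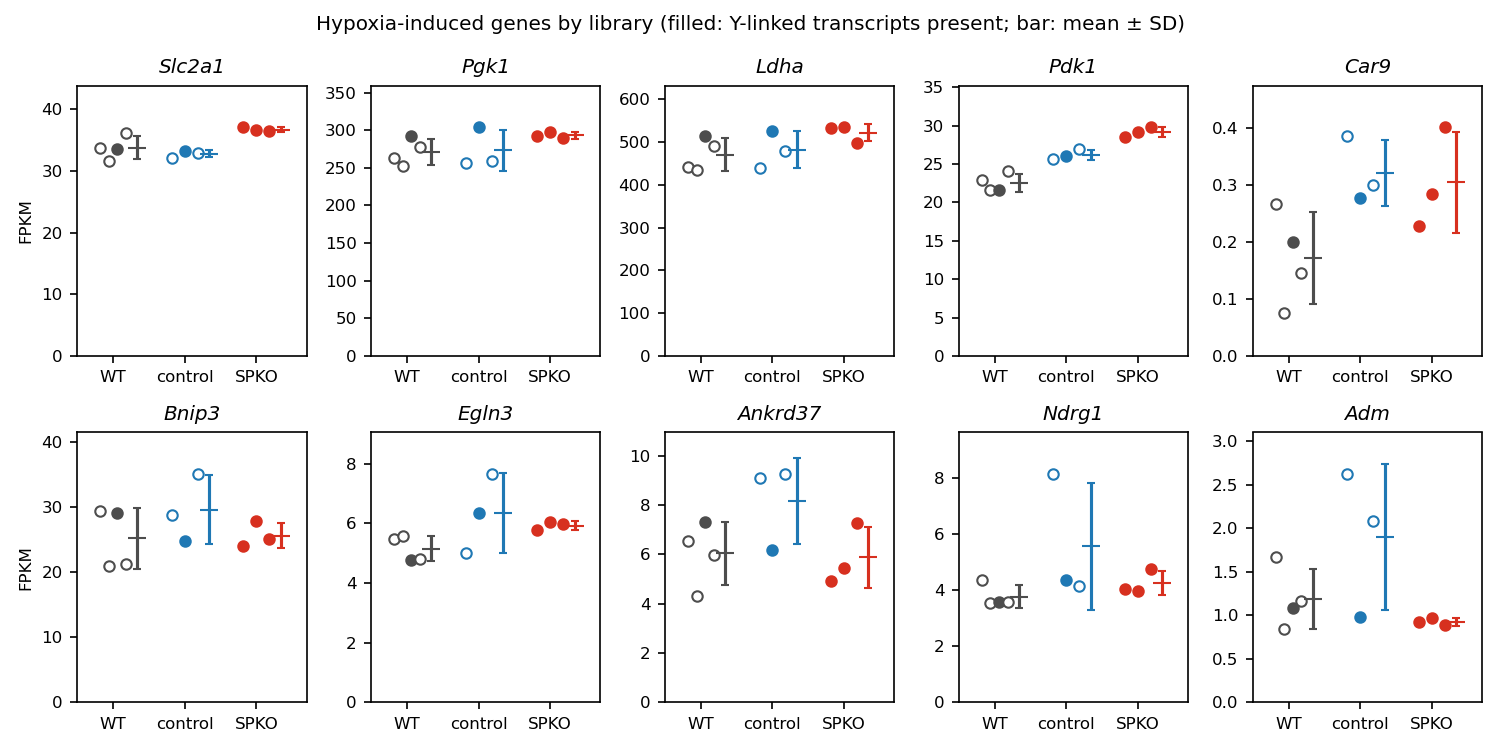
FPKM (linear axis from 0) of each of the 10 genes in wild-type (WT), Foxd1GC control and Ntn1SPKO (SPKO) libraries, 1 point per library, filled where Y-linked transcripts were present, with the mean ± SD beside each group. The 3 groups of Pdk1 follow one another without overlap, at 21.6 to 24.1, 25.6 to 26.9 and 28.5 to 29.8 FPKM, while control replicates 1 and 3 lie above the rest for Ankrd37 and Adm.

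None of the 9 genes that could be tested was called in any of the 3 comparisons by limma, where a call needed an adjusted p under 0.1 and at least a 2-fold change. Car9 was below the filter of a mean of 0.5 FPKM and is given by its values only. Of all genes tested, 0.055% were called for Ntn1SPKO against control (8 of 14550), 0.0485% for Ntn1SPKO against wild type (7 of 14432) and 0.00685% for control against wild type (1 of 14594), so 0 of 9 is close to what any 9 genes would give. The adjusted p of the members was 0.447 to 0.837, 0.152 to 0.986 and 0.665 to 0.985 in that order of comparisons. Ntn1, the removed gene, was not called in Ntn1SPKO kidneys either. Its log2 difference was −1.48 from the control (limma adjusted p=0.447) and −1.30 from wild type (limma adjusted p=0.14). The absence of a call therefore does not show that a gene is unchanged. At an unadjusted p under 0.05, limma gave 2 of 9 members against the control (10.7% of all genes), 1 of 9 against wild type (5.76%) and 1 of 9 for control against wild type (7.06%). The 3 comparisons share libraries and are not independent of one another. In these whole kidneys, fewer cells of a type and less RNA per cell cannot be told apart.

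The intervals limited how large a change could have been missed. For Ntn1SPKO against the control, the 95% interval left out a 2-fold rise for all 9 genes and a 2-fold fall for 8, the exception being Adm. Against wild type it left out both for all 9. For control against wild type it left out a 2-fold fall for all 9 and a 2-fold rise for 7, the exceptions being Ndrg1 and Adm. The median difference of the 9 genes, on the log2(FPKM + 0.1) scale used for all differences, was −0.08, 0.12 and 0.24 in the 3 comparisons, beside 0.01, 0.00 and −0.01 over all genes tested. The first of these was −0.01 without control replicate 1 and 0.07 without control replicate 3, so 1 library decided its sign.

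**Figure D2:**
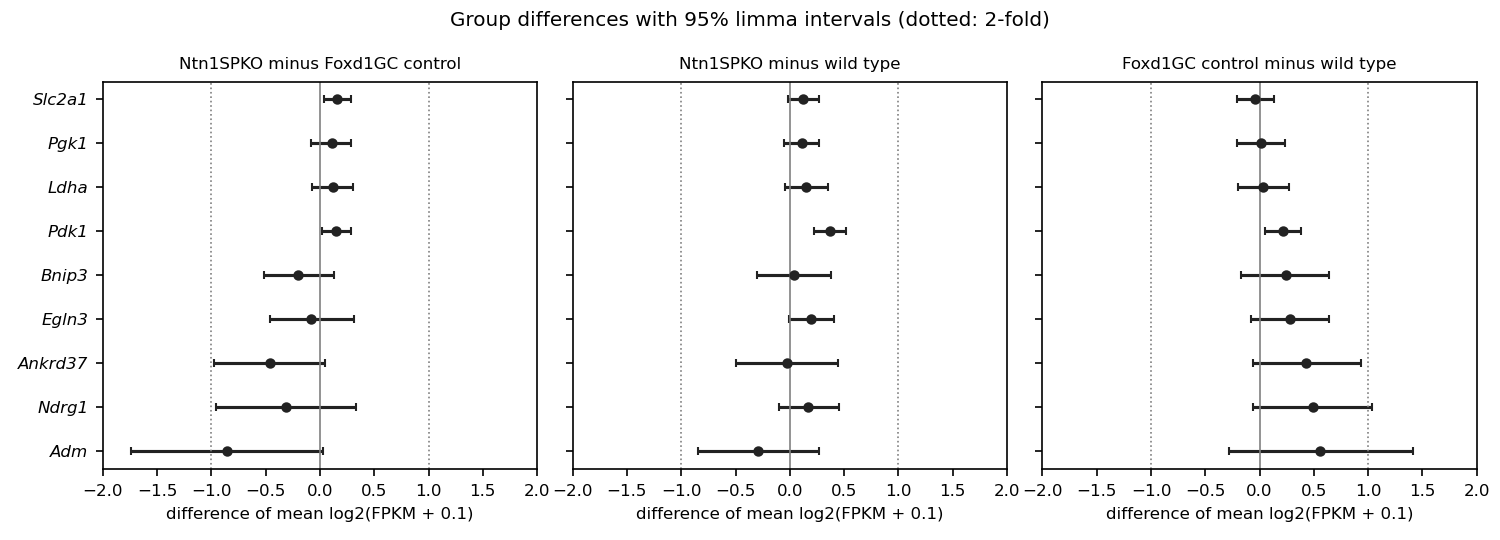
Difference of mean log2(FPKM + 0.1) for the 9 tested genes in the 3 comparisons (points) with 95% limma intervals (bars); dotted lines mark a 2-fold change and the grey line no difference. No interval lies wholly beyond 2-fold, and those of Slc2a1 and Pdk1 lie above 0 against the control.

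The glucose transporter and the enzymes that steer glucose towards lactate all had higher means in Ntn1SPKO kidneys than in the other groups, by amounts far below 2-fold that did not pass the test. Slc2a1 (ENSMUSG00000028645, chr4:119108711-119137983) encodes GLUT1, the main glucose transporter of erythrocytes, endothelium and many embryonic cells. Its level was 33.7, 31.6, 33.6 and 36.2 FPKM in wild-type kidneys, 32.1, 33.3 and 32.9 FPKM in control kidneys and 37.1, 36.7 and 36.4 FPKM in Ntn1SPKO kidneys. All 3 Ntn1SPKO libraries were thus above all 7 others, the nearest being wild-type replicate 4. The difference was 0.16 against the control (SE 0.0528, 95% interval 0.04 to 0.29, limma adjusted p=0.447) and 0.12 against wild type (SE 0.0625, adjusted p=0.947). Separation of this kind, higher in every mutant, was seen in 11% of all genes against the control and in 3.56% against wild type. The exact permutation p for Slc2a1, two-sided, was 0.1 against the control (n=3 and 3), the smallest that this design allows, and 0.0571 against wild type, where it could have reached 0.0286.

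Pdk1 (ENSMUSG00000006494, chr2:71873224-71903858) encodes the pyruvate dehydrogenase kinase that keeps pyruvate out of the mitochondria and is a classic HIF1 target. Its level was 22.9, 21.6, 21.6 and 24.1 FPKM in wild-type kidneys, 25.6, 26.1 and 26.9 FPKM in control kidneys and 28.5, 29.2 and 29.8 FPKM in Ntn1SPKO kidneys. The groups did not overlap in any comparison, and the control lay between the others. Of all genes, 4.04% were likewise higher in every control than in every wild-type library. The difference between Ntn1SPKO and wild type was 0.37 (29.3% higher; SE 0.0628, 95% interval 0.22 to 0.52), with a limma unadjusted p of 0.000452 and an adjusted p of 0.152, and the exact permutation p was 0.0286, the smallest possible for 3 against 4. It was 0.15 for Ntn1SPKO against the control (SE 0.0572, adjusted p=0.447) and 0.22 for the control against wild type (SE 0.0722, adjusted p=0.665). Among kidneys with Y-linked transcripts, wild-type replicate 3 was at 21.6 and control replicate 2 at 26.1 FPKM, against 28.5 to 29.8 FPKM in the Ntn1SPKO kidneys. The fit with sex as a covariate restates that comparison with wild-type replicate 3 alone, as a difference of 0.43. As a share of the summed FPKM of the 4 pyruvate dehydrogenase kinases, Pdk1 made up 30% ± 2.48 (SD, n=4) in wild-type, 35.8% ± 1.2 (n=3) in control and 36.1% ± 2.35 (n=3) in Ntn1SPKO kidneys.

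Pgk1 (ENSMUSG00000062070, chrX:106187100-106203699), the phosphoglycerate kinase of glycolysis, and Ldha (ENSMUSG00000063229), the lactate dehydrogenase subunit that favours lactate, followed another pattern. Pgk1 was 263, 253, 292 and 277 FPKM in wild-type, 256, 304 and 259 FPKM in control and 292, 297 and 289 FPKM in Ntn1SPKO kidneys. Ldha was 442, 436, 515 and 490 FPKM in wild-type, 440, 526 and 480 FPKM in control and 532, 535 and 499 FPKM in Ntn1SPKO kidneys. For both genes the 5 libraries with Y-linked transcripts lay above the 5 without, at 289 to 304 against 253 to 277 FPKM for Pgk1 and at 499 to 535 against 436 to 490 FPKM for Ldha. Of 14534 genes, 2.02% separated these 2 sets of libraries in either direction. The difference of Ntn1SPKO from the control was 0.11 for Pgk1 (SE 0.0767, limma adjusted p=0.533) and 0.12 for Ldha (SE 0.0769, adjusted p=0.503), and against control replicate 2 alone, the only control with Y-linked transcripts, they were −0.05 and −0.01. Against wild type they were 0.11 and 0.15 (limma adjusted p=0.947 for both). They were 0.01 and 0.02 against wild-type replicate 3 alone, a library that stood apart over all genes. All 3 Ntn1SPKO kidneys carried Y-linked transcripts and only 1 control did, so the part of sex in these differences cannot be told apart from that of 1 library. Pgk1 is X-linked and Ldha is not. Their levels correlated with r=0.93 over the 10 libraries, the highest of the 36 pairs of members, a description that rests on libraries of 3 groups.

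**Figure D3:**
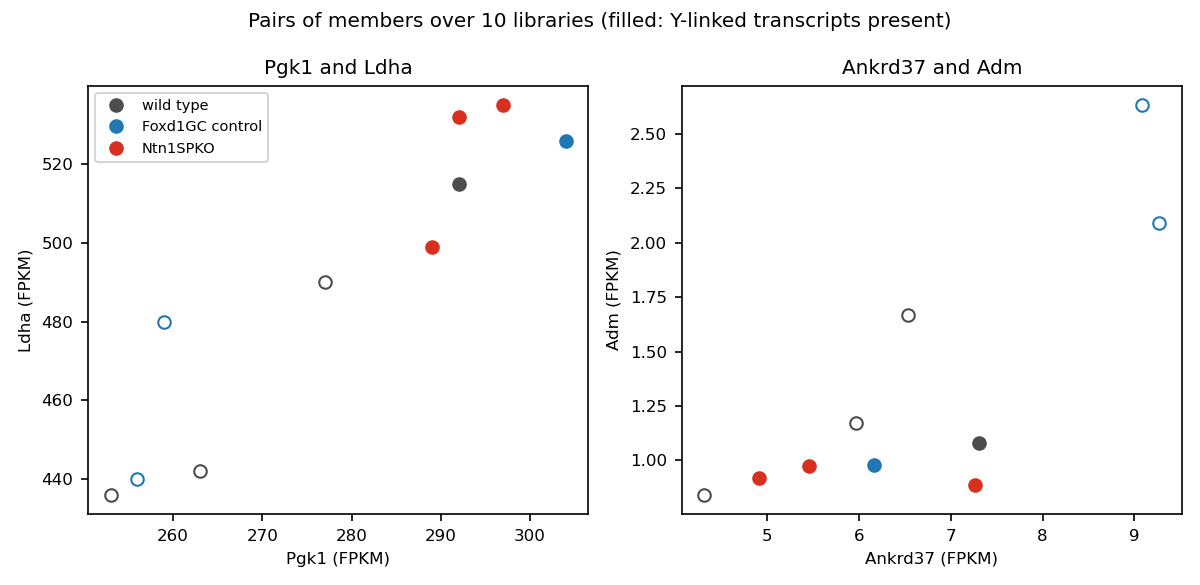
FPKM of Ldha against Pgk1 (left) and of Adm against Ankrd37 (right) in the 10 libraries, 1 point each, coloured by group and filled where Y-linked transcripts were present; axes do not start at 0. The 5 filled points lie at the upper right for Pgk1 and Ldha, and the 2 points at the upper right for Ankrd37 and Adm are control replicates 1 and 3.

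The other members, which act in oxygen sensing, mitochondrial clearance, stress responses and vessel signalling, had lower means than the control in Ntn1SPKO kidneys, all 5 of those tested. Against wild type, 7 of the 9 tested members had higher means in Ntn1SPKO kidneys (77.8%, beside 51.1% of all genes), the exceptions being Adm and Ankrd37. The control was likewise above wild type for 8 of the 9 (88.9%, beside 48.4% of all genes), so this was not particular to Ntn1SPKO kidneys. Adm (ENSMUSG00000030790, chr7:110627661-110629820) encodes adrenomedullin, a secreted peptide that widens vessels and acts on endothelium. It was 1.67, 0.843, 1.08 and 1.17 FPKM in wild-type kidneys, 2.63, 0.977 and 2.09 FPKM in control kidneys and 0.921, 0.975 and 0.888 FPKM in Ntn1SPKO kidneys. The 3 Ntn1SPKO libraries were below all controls, only just in the case of control replicate 2 (0.977 against 0.975 FPKM), and lay within the wild-type range. The difference from the control was −0.86 (SE 0.37, 95% interval −1.74 to 0.03), the largest of any member, with a limma adjusted p of 0.447 and an exact permutation p of 0.1. A separation in this direction was found in 8.91% of all genes. It rested on control replicates 1 and 3, since the difference was −1.25 without control replicate 2, −0.58 without control replicate 1 and −0.07 against control replicate 2 alone. Adm is a low transcript, and against wild type the difference was −0.29 (SE 0.24, adjusted p=0.947).

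Ankrd37 (ENSMUSG00000050914, chr8:45996902-46005707), an ankyrin repeat protein whose gene is a strong HIF1 target, was 6.54, 4.32, 7.31 and 5.97 FPKM in wild-type kidneys, 9.08, 6.17 and 9.27 FPKM in control kidneys and 4.91, 5.46 and 7.27 FPKM in Ntn1SPKO kidneys. Control replicates 1 and 3 were again the highest of the 10, and control replicate 2 lay inside the range of the Ntn1SPKO kidneys. The difference of Ntn1SPKO from the control was −0.46 (SE 0.21, limma adjusted p=0.447), −0.09 against control replicate 2 alone, and from wild type −0.03 (SE 0.20, adjusted p=0.986). Ndrg1 (ENSMUSG00000005125, chr15:66929318-66969640), a stress-induced gene known from Schwann cells and epithelia, was 8.15 FPKM in control replicate 1 and 3.53 to 4.75 FPKM in the other 9 libraries. Its difference from the control was −0.31 (SE 0.27, adjusted p=0.588) and −0.01 without control replicate 1. Sox10, a defining marker of Schwann cells, was 0.538 FPKM in control replicate 1, 0.584 FPKM in control replicate 3 and 0.0931 to 0.393 FPKM in the other 8 libraries, and its part in the Ndrg1 value was not tested.

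Bnip3 (ENSMUSG00000078566, chr7:138890836-138909519), a mitochondrial outer membrane protein that promotes mitophagy, was 29.3, 20.9, 29.1 and 21.3 FPKM in wild-type, 28.8, 24.8 and 35.1 FPKM in control and 24, 27.8 and 25.1 FPKM in Ntn1SPKO kidneys. The groups overlapped throughout, with differences of Ntn1SPKO of −0.20 (SE 0.14, limma adjusted p=0.524) from the control and 0.04 (SE 0.15, adjusted p=0.976) from wild type. Its relative Bnip3l was the more abundant of the pair, since Bnip3 made up 14.1% ± 2.2 (SD, n=4), 15.2% ± 2.83 (n=3) and 12.8% ± 0.867 (n=3) of their summed FPKM in wild-type, control and Ntn1SPKO kidneys. Egln3 (ENSMUSG00000035105, chr12:54178981-54203860), the prolyl hydroxylase that is itself induced by HIF, was 5.48, 5.59, 4.76 and 4.82 FPKM in wild-type, 5.01, 6.36 and 7.67 FPKM in control and 5.77, 6.04 and 5.99 FPKM in Ntn1SPKO kidneys. Every Ntn1SPKO library was above every wild-type library, as in 3.56% of all genes. The difference was 0.20 on average (SE 0.0897, limma adjusted p=0.882, exact permutation p=0.0857). All Ntn1SPKO libraries lay inside the control range, with a difference of −0.08 (SE 0.16, limma adjusted p=0.837).

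Car9 (ENSMUSG00000028463, chr4:43506966-43513729), a membrane carbonic anhydrase that is among the most oxygen-sensitive transcripts known, was close to absent. It was 0.267, 0.0748, 0.201 and 0.145 FPKM in wild-type, 0.386, 0.277 and 0.3 FPKM in control and 0.229, 0.285 and 0.402 FPKM in Ntn1SPKO kidneys. Every control library was above every wild-type library, as in 4.04% of all genes tested, and the Ntn1SPKO range overlapped both. The low level leaves few fragments behind each value, roughly 3.1 to 14.9 per library by the spacing of low values in the table, so differences of this size were not resolved. Car9 made up 0.526% ± 0.274 (SD, n=4), 1.06% ± 0.182 (n=3) and 1.01% ± 0.186 (n=3) of the summed FPKM of the 5 carbonic anhydrases listed with it, in wild-type, control and Ntn1SPKO kidneys.

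The members can also be followed by library. The mean of Slc2a1, Pgk1, Ldha and Pdk1, each centred on its own mean over the 10 libraries, was 0.10 to 0.13 on the log2 scale in the Ntn1SPKO libraries, −0.09, 0.06 and −0.03 in control replicates 1 to 3 and −0.16 to 0.00 in the wild-type libraries. The mean of the other 5 tested members was 0.47 and 0.40 in control replicates 1 and 3 and −0.34 to 0.11 elsewhere, with −0.06 in control replicate 2. These 5 did not move as a set, since in control replicate 1 Adm was at 1.03, Ndrg1 at 0.90, Ankrd37 at 0.49 and Egln3 at −0.18, and in control replicate 3 Ndrg1 was at −0.05 and the other 4 at 0.42 to 0.72. Egln3 correlated with Pdk1 (r=0.53) and hardly with Ankrd37 (r=0.16) or Adm (r=0.06). Control replicates 1 and 3 are the libraries with a higher stromal marker sum, mostly from collagens, and less ureteric bud RNA. Erythroid RNA was high in both and in Ntn1SPKO replicate 3 (18670 FPKM), whose mean over the other 5 members was −0.02. The part of tissue make-up in these levels was not tested. Wild-type replicate 2 was the lowest library for 8 of the 10 members, while it was the lowest for 7.85% of all 14492 genes counted. By group means, wild type was the highest group for 0 of the 10 members and for 29.4% of all genes, control for 6 and 36.7%, and Ntn1SPKO for 4 and 33.9%. Members that vary together count repeatedly in such numbers.

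**Figure D4:**
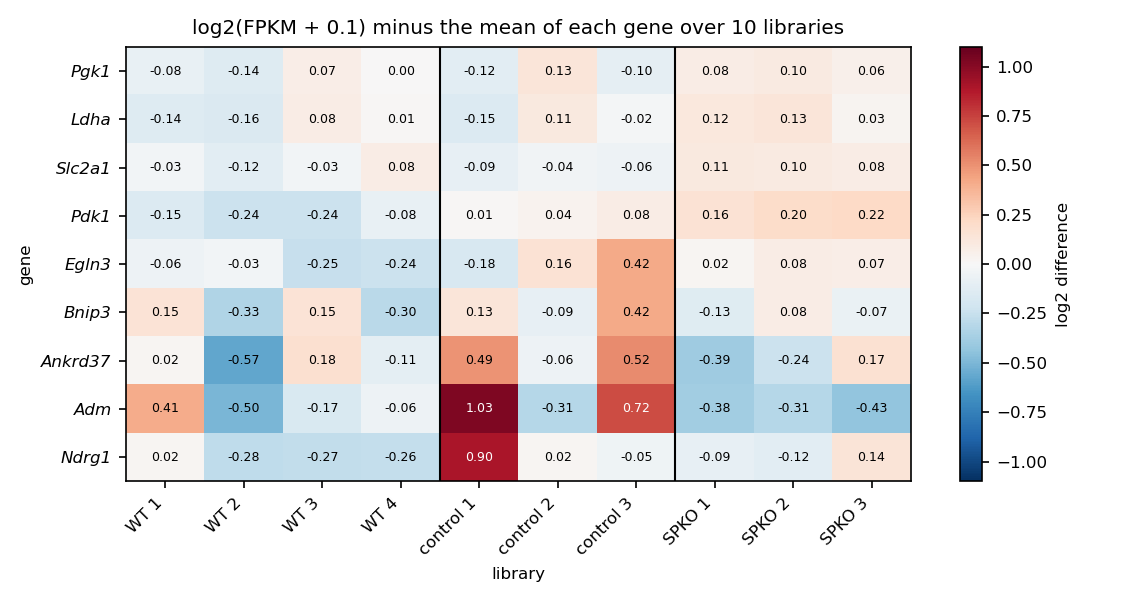
log2(FPKM + 0.1) of the 9 tested members in each library minus the mean of the gene over the 10 libraries, with the value in each cell and black lines between wild-type (WT), control and Ntn1SPKO (SPKO) libraries. The warmest cells are Adm, Ndrg1 and Ankrd37 in control replicate 1 and Adm, Ankrd37, Bnip3 and Egln3 in control replicate 3, and the Slc2a1 and Pdk1 cells of the 3 Ntn1SPKO libraries are all above 0.

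Across pairs, Ankrd37 correlated with Adm (r=0.78) and with Bnip3 (r=0.77) over the 10 libraries, and Adm was inverse to Pgk1 (r=−0.62) and Ldha (r=−0.53). Genes outside the set whose profile over the 10 libraries was most like the mean profile of the members, among 13134 with a mean of at least 1 FPKM, were Cyp4f17 (r=0.94), Pcolce and Podxl2 (r=0.92 each) and B3gnt9 and Nipa1 (r=0.91 each). The mean profile used to pick them was itself highest in control replicates 1 and 3 (0.22 and 0.21). A mean that was highest in the control, found for each of the 5, therefore follows from the choice. Pcolce, for example, was 60.2 ± 14.9 FPKM in the control (SD, n=3), 42.3 ± 5.05 in wild type (n=4) and 48.1 ± 3.4 in Ntn1SPKO (n=3).

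Most other genes of the glycolytic route also had higher means in Ntn1SPKO kidneys, and none passed the test. Of 16 other genes of glucose uptake, glycolysis and lactate export that could be tested, 12 were above and 4 below the control in Ntn1SPKO kidneys, with a median of 0.13, where 51.2% of all genes tested were above. Against wild type 14 were above and 2 below (median 0.13, beside 51.1% of all genes), and for control against wild type 7 were above and 9 below (median −0.04, beside 48.4%). None of the 16 was called by limma in any comparison. An unadjusted p under 0.05 was found for 4, 2 and 1 of them, beside 10.7%, 5.76% and 7.06% of all genes. The numbers above 0 were 11 to 13, 13 to 15 and 5 to 8 under the other settings tried. The median against the control was 0.21 without control replicate 2 and 0.04 against control replicate 2 alone, so its size depended on that library. Aldoa was left out of these counts because its symbol is on more than 1 entry.

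Of the 16, 5 were higher in every Ntn1SPKO than in every control library, as were 11% of all genes. Hk2, the hexokinase that is induced by insulin and HIF, was 28.8, 22.3 and 23.1 FPKM in Ntn1SPKO and 18.6, 21.1 and 16 FPKM in control kidneys, a difference of 0.41 (SE 0.14, limma adjusted p=0.447), but wild-type kidneys lay at 17.1 to 24.3 FPKM. Eno1, the enolase, differed by 0.25 (815 ± 14.7 against 689 ± 72.8 FPKM, SD, n=3 each) and Pfkl, a phosphofructokinase, by 0.24 (55.5 ± 0.482 against 47.1 ± 3.54 FPKM), both with an adjusted p of 0.447. Against wild type the clearest was Pfkp, the platelet-type phosphofructokinase, at 3.78 ± 0.198 FPKM in Ntn1SPKO (n=3) and 2.71 ± 0.16 FPKM in wild type (n=4), a difference of 0.47 (SE 0.10, adjusted p=0.269). Pfkp was as high in the control, at 3.8 ± 0.209 FPKM, with a difference from wild type of 0.47 (SE 0.12, adjusted p=0.665). Tpi1, triosephosphate isomerase, was 90.7 ± 5.17 FPKM in Ntn1SPKO against 77.5 ± 2.48 FPKM in wild type, a difference of 0.22 (SE 0.0622, adjusted p=0.515), and 1 control library reached 114 FPKM. Pfkl also separated from wild type, by 0.20 (SE 0.0898, limma adjusted p=0.882), as did 3.56% of all genes in that direction.

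**Figure D5:**
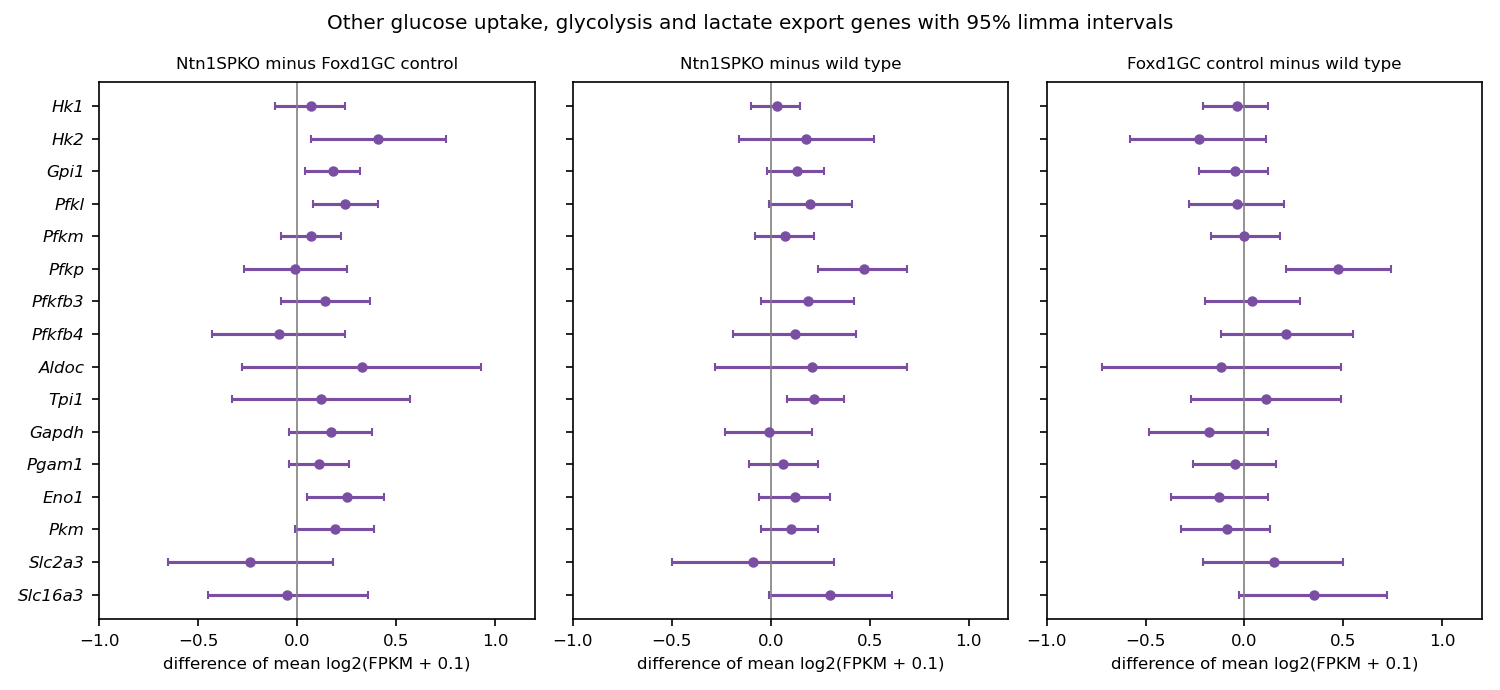
Difference of mean log2(FPKM + 0.1) for 16 further genes of glucose uptake, glycolysis and lactate export in the 3 comparisons (points) with 95% limma intervals (bars); the grey line marks no difference. Most points of both Ntn1SPKO comparisons lie right of 0 (12 and 14 of 16), and those of the control against wild type lie on both sides (7 of 16 above 0).

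Other genes known to be induced by low oxygen were split between both directions in the Ntn1SPKO comparisons. Of 25 tested, 11 were above and 14 below the control in Ntn1SPKO kidneys (median −0.09), 11 and 14 against wild type (median −0.02), and 20 and 5 for control against wild type (median 0.09, beside 48.4% of all genes above 0). None was called, and 0, 1 and 1 had an unadjusted p under 0.05 by limma, beside 10.7%, 5.76% and 7.06% of all genes. The first count was 7 without control replicate 1, 6 without Ntn1SPKO replicate 2 and 15 against control replicate 2 alone, and the third was 12 without control replicate 3. Slc2a3, Pfkfb3 and Pfkfb4 belong to both lists. Vegfa, the main growth factor of endothelium, was 21, 22.3, 20.4 and 24.4 FPKM in wild-type, 23.2, 26.2 and 28.5 FPKM in control and 22.7, 22.6 and 24.5 FPKM in Ntn1SPKO kidneys, and the groups overlapped. Its difference was −0.15 from the control (SE 0.0925, adjusted p=0.484) and 0.08 from wild type (SE 0.0794, adjusted p=0.947). Ddit4, an inhibitor of mTORC1 signalling, and Ero1l, an oxidase of the endoplasmic reticulum, were each lower by 0.18 in Ntn1SPKO than in control kidneys. Mxi1, an antagonist of Myc, was higher by 0.14. The groups did not overlap in each case (limma adjusted p=0.45, 0.447 and 0.454). Of all genes, 8.91% were lower and 11% higher in this way. Against wild type, Bnip3l was 175 ± 5.47 against 154 ± 8.31 FPKM, a difference of 0.19 (SE 0.0652, adjusted p=0.717), and Ero1l differed by −0.20 (SE 0.09, adjusted p=0.882).

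Among 16 tested genes of the oxygen-sensing machinery, 9 were above and 7 below the control in Ntn1SPKO kidneys (median 0.03). The numbers were 11 and 5 against wild type (median 0.05) and 9 and 7 for control against wild type (median 0.05). None of these genes was called by limma, and 4, 0 and 0 had an unadjusted p under 0.05, beside 10.7%, 5.76% and 7.06% of all genes. Hif1a was 62.1, 63.3, 58.4 and 59.7 FPKM in wild-type, 60.8, 59 and 50.8 FPKM in control and 65.6, 62.1 and 62.5 FPKM in Ntn1SPKO kidneys. The Ntn1SPKO libraries were above all controls (difference 0.16, SE 0.0813, adjusted p=0.452) and overlapped wild type (0.06, SE 0.057, adjusted p=0.947). HIF is regulated mainly through protein stability, which these data do not measure. Epas1, the subunit prominent in endothelium and stroma, was 8.82 ± 2.09 FPKM in Ntn1SPKO (n=3), 8.14 ± 1.75 FPKM in control (n=3) and 6.99 ± 2.2 FPKM in wild-type kidneys (n=4), all overlapping. The largest differences without overlap from the control were in Crebbp, Cited2 and Elob, with limma adjusted p of 0.447, 0.447 and 0.451. Crebbp, a coactivator acetyltransferase, differed by 0.40 (86.7 ± 3.78 against 65.9 ± 9.33 FPKM). Cited2, a competitor of HIF for that coactivator, differed by 0.24 (46.6 ± 1.9 against 39.7 ± 4.91 FPKM). Elob, a subunit of the Vhl ligase complex, differed by −0.22 (382 ± 14.8 against 449 ± 70.9 FPKM). Of all genes, 11% were higher and 8.91% lower without overlap.

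Relatives of the members, 16 tested genes of the same families, went in both directions, with 10 above and 6 below the control in Ntn1SPKO kidneys (median 0.07), 6 and 10 against wild type (median −0.03) and 9 and 7 for control against wild type (median 0.10). None was called by limma, and 0, 3 and 3 had an unadjusted p under 0.05, beside 10.7%, 5.76% and 7.06% of all genes. Pdk3 was 42.6 ± 4.76 FPKM in Ntn1SPKO and 36.9 ± 1.5 FPKM in control kidneys, a difference of 0.20 (SE 0.0914, limma adjusted p=0.447). Pdk4, which is induced by fasting, was 0.517 ± 0.0457 and 0.692 ± 0.0978 FPKM, a difference of −0.36 (SE 0.29, limma adjusted p=0.578). Neither overlapped between these groups, where 11% of all genes were higher and 8.91% lower without overlap. Car4, a carbonic anhydrase anchored on the cell surface, was 6.22 ± 1.04 FPKM in Ntn1SPKO and 10.9 ± 2.87 FPKM in wild-type kidneys, a difference of −0.78 (SE 0.22, adjusted p=0.529). Car14, a membrane carbonic anhydrase, was 9.76 ± 0.836 FPKM in control and 12.2 ± 0.541 FPKM in wild-type kidneys, a difference of −0.32 (adjusted p=0.665).

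Calcrl and Ramp2, which form the main receptor for adrenomedullin, were abundant, while Ramp3 and the ligand were low. Calcrl, its receptor, was 64.6 ± 6.6 FPKM in Ntn1SPKO (n=3), 54.2 ± 4.49 FPKM in control (n=3) and 52.9 ± 3.7 FPKM in wild-type kidneys (n=4), a difference of 0.25 from the control (SE 0.10, limma adjusted p=0.447) with overlapping groups. Ramp2, the partner that makes Calcrl an adrenomedullin receptor, was 67 ± 6.78, 74.4 ± 6.44 and 66.1 ± 7.46 FPKM in the same order. Ramp3, a second partner, was 2.62 ± 0.224, 3.25 ± 0.349 and 2.97 ± 0.735 FPKM, and its Ntn1SPKO values overlapped wild type. It was lower in every Ntn1SPKO than in every control library by 0.30 (SE 0.14, limma adjusted p=0.449), as were 8.91% of all genes. Ramp1, named after its values were seen, was below the filter, at 0.169 ± 0.0824, 0.431 ± 0.148 and 0.173 ± 0.0534 FPKM. Endothelial marker RNA, summed over 10 genes, was 212 to 240 FPKM in Ntn1SPKO, 227 to 252 FPKM in control and 179 to 220 FPKM in wild-type kidneys, and its part in these values was not tested.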

How the data were processed

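RNA-seq of 10 whole-kidney libraries at E13.5 was analysed. According to the study's methods, the authors quantified reads with Salmon against coding sequences of Ensembl GRCm38 and imported them with tximport, and the submitters' processing notes add bcl2fastq 2.17.1.14. The deposited values are FPKM per gene, with 35663 entries and 35578 distinct symbols. Median-of-ratios factors were 1 in every library, so FPKM were used as deposited. Summed FPKM were 795829 to 1002638 per library. Whole fragments were not recovered, and the depth of about 23.9 to 32.4 M fragments (1 M is 1000000) per library, read from the spacing of low values, is rough and limits only low genes such as Car9 and Adm.

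Differences were taken on log2(FPKM + 0.1), which understates changes of low genes, and genes whose average in the compared libraries was below 0.5 FPKM were dropped. limma 3.58.1 (R 4.3.3) was fitted to the libraries of each pair of groups, with variances moderated along expression level and p-values adjusted by Benjamini-Hochberg over every gene tested, in place of the count model of the study because FPKM are not counts. A call required an adjusted p under 0.1 and a 2-fold change. Exact permutation tests over libraries were two-sided, and 3 against 3 libraries cannot go below 0.1. On simulated data with 195 genes changed by 2 on the log2 scale among 14550, for Ntn1SPKO against control, 84.1% of these were called. Of the 175 genes called there, 11 were false. Changes as small as those of the members were not tested. Nothing in the sources states which libraries share a litter or an embryo, so p-values measure the spread between libraries.

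Members, gene lists and markers were chosen with earlier results of these data known. Named were all members, Ntn1, Hif1a, Epas1, Vegfa, Calcrl, Ramp2, Ramp3, up to 3 non-overlapping genes with the largest difference per list and comparison, and the 5 genes most like the members. Cell type markers are given as sums per library. Alternatives were pseudocounts of 1 and 0.01, other filters, 3 rescalings, limma without a trend or with robust variance, 1 fit of all libraries, a replicate block, embryo sex as a covariate and leaving out each library. Gene positions are from GENCODE M21 (GRCm38.p6) and promoter sequences from RefSeq.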

Additional observations from a re-analysis of the deposited data

Results flagged for a closer look

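Ndrg1 in wild-type kidneys was marked because 1 library lay far from the others by Dixon's criterion. Wild-type replicate 1 was at 4.37 FPKM, and the other 3 libraries were at 3.53 to 3.57 FPKM. The 10 members were each checked in the group of 4 wild-type libraries, the groups of 3 being too small, and chance marks about 1 in 20 such groups. Control replicate 1, at 8.15 FPKM, was farther from its group.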

How the results depend on the processing

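No member was called by limma under any alternative, in any of the 3 comparisons. A call also needed a 2-fold change, which no member reached in the main fits. The fold cut alone was therefore enough to prevent a call there, and the count does not describe the adjusted p. The median difference of the members for Ntn1SPKO against the control, −0.08, was −0.03 after quantile normalization and −0.09 to 0.07 when 1 library was left out. For Ntn1SPKO against wild type, 0.12, it was 0.02 with sex as a covariate, and for control against wild type, 0.24, it was 0.13 to 0.30 when 1 library was left out, the lowest without control replicate 3. The fit with sex as a covariate compares Ntn1SPKO with 1 library, control replicate 2 or wild-type replicate 3, so its sign changes show where that library lies: for Ntn1SPKO against the control, Pgk1 was −0.05, Ldha −0.01 and Bnip3 0.04, and against wild type Bnip3 was −0.19. For control against wild type, where each group has libraries of both kinds, Pgk1 was −0.01. Rescaling to the same total gave 0.02 for Ankrd37 against wild type. Leaving out 1 library gave ranges that crossed 0 for Egln3 against the control (−0.23 to 0.07), for Bnip3 (−0.04 to 0.12) and Ankrd37 (−0.19 to 0.09) against wild type, and for Pgk1 (−0.07 to 0.05) and Ldha (−0.03 to 0.10) in control against wild type. The cause was not tested for the rescaled value or for Pgk1 in control against wild type, and the others follow from the libraries left out.

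Calls over all genes moved more. Ntn1SPKO against the control gave 8 genes, and 78 without control replicate 2, 3 to 21 without any other single library, 21 without a filter, 4 with sex as a covariate and 0 in 1 fit of all 10 libraries. Against wild type, 7 genes became 1 to 20 without 1 library, 18 without a filter, 12 without the trend, 2 with a pseudocount of 1, 187 with sex as a covariate (an arm of 1 library) and 0 in the fit of all libraries. For control against wild type, 1 gene became 3 to 20 without 1 library, 9 without a filter, 4 without the trend, 2 with either other pseudocount and 0 in the fit of all libraries.

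Replicate numbers did not pair the libraries, since deviations of same-numbered libraries correlated at −0.0471 to 0.0755. A replicate block left the count of called members at 0 in each comparison and the calls over all genes at 8, 7 and 1. Depth limits Car9 and Adm, which rest on few fragments.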
